A study of Rattus with 6 samples.

Results

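The BCL2 family decides whether a stressed cell keeps its mitochondria intact. The genes examined, Bcl2, Bcl2l1, Mcl1, Bax, Bak1, Bid, Bad, Bcl2l11, Bbc3 and Pmaip1, were taken by symbol from the table of reads per gene; all 10 were found among its 20742 genes. The table, made on the build mRatBN7.2, lists each as protein-coding and places Bax, Bad and Bbc3 on chromosome 1, Bcl2l1 and Bcl2l11 on chromosome 3, and Mcl1, Bid, Bcl2, Pmaip1 and Bak1 on chromosomes 2, 4, 13, 18 and 20. RNA was sequenced from H9C2 cells, a line from embryonic rat heart, in 3 libraries labelled as carrying a control plasmid and 3 labelled as overexpressing RBM25. Both groups share the cell line, and no drug, stress or time point is given in the labels. The species of the RBM25 insert, the time after its delivery and the share of cells that took it up are not stated in the labels, nor is it stated whether the libraries of a group came from separate cultures. The p-values are therefore set against the variation among these 6 libraries, some or all of which could be technical.

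Proteins of this family fall into 3 groups of opposing function. The survival proteins (BCL2, BCL-X from Bcl2l1, and MCL1) hold back the effectors BAX and BAK, which open the outer mitochondrial membrane and let cytochrome c out. The BH3-only proteins (BID, BAD, BIM from Bcl2l11, PUMA from Bbc3 and NOXA from Pmaip1) carry death signals by binding the survival proteins or the effectors. Bcl2l1 transcripts are spliced at alternative 5′ splice sites into a long form, BCL-XL, which protects cells, and a short form, BCL-XS, which promotes death. RBM25 binds RNA and acts on 5′ splice sites through the U1 snRNP, and in human cells it was shown to favour the site that gives BCL-XS. The files give reads per gene, so both Bcl2l1 forms are summed here and the choice between them was not measured.

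The libraries held 25543849 to 33130256 counted reads, and levels below are CPM, reads for every 1000000 counted in the library, adjusted by normalization factors between 0.9956 and 1.011. Rbm25 itself was at 49.2, 44.5 and 45.7 CPM in control replicates 1, 2 and 3 and at 56.2, 55.8 and 60.0 CPM in RBM25 replicates 1, 2 and 3. The groups did not overlap, with a log2 fold change of 0.30 ± 0.047 (SE; edgeR quasi-likelihood test, Benjamini-Hochberg adjusted p = 0.0011), but leaving out control replicate 2 ended the call (log2 fold change 0.28; adjusted p = 0.0842 by edgeR), as did testing FPKM values with limma (adjusted p = 0.221). Rbm25l1, a gene annotated as RBM25-like, had 5 reads over all controls and 366 over all RBM25 libraries. How reads are divided between genes this alike is uncertain. Of the heart and muscle genes, Tnnt2, Casq2, Nkx2-5 and Gata4 were at control means of 106, 329, 15.2 and 11.6 CPM. Vim, Myog and Des were at control means of 4103, 21.4 and 9.25 CPM. Actc1 and Chrna1 were at 0.776 and 0.282 CPM, and the heart myosin genes Myh6 and Myh7 at 0.284 and 0.0131 CPM. Of 8 markers of leukocytes, endothelium and epithelium, 6 were in the table and none had enough reads to be tested. Cd68 was the highest of these, at control and RBM25 means of 0.281 and 0.479 CPM, and Pecam1, Cdh5, Kdr, Epcam and Cdh1 were at 0.0454 CPM or less in both groups. RNA was taken from whole cultures, so a shift in all cells and a larger shift in some of them cannot be told apart.

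None of the BCL2 family genes changed past the threshold with RBM25 overexpression. Of the 10, 9 had enough reads to be tested and Bcl2 did not. None of the 9 was called by edgeR at an adjusted p under 0.05, none had an unadjusted p under 0.05, and DESeq2, which called 0.318% of all genes it adjusted, also called 0. Over all 12882 tested genes 52 were called, or 0.404%, and 1441 had an unadjusted p under 0.05, or 11.2%. At that background a count of 0 among 9 genes says little by itself. More is given by the 95% intervals of the fold changes, which lay inside 1.2-fold in either direction for 7 of the 9 genes. Their signs were mostly negative, 7 of 9, with a median log2 fold change of -0.036, beside 6592 of 12882 and a median of -0.0021 over all tested genes. The median size of the change regardless of sign was 0.047 for the 9 genes and 0.060 for all tested genes.

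**Figure D1:**
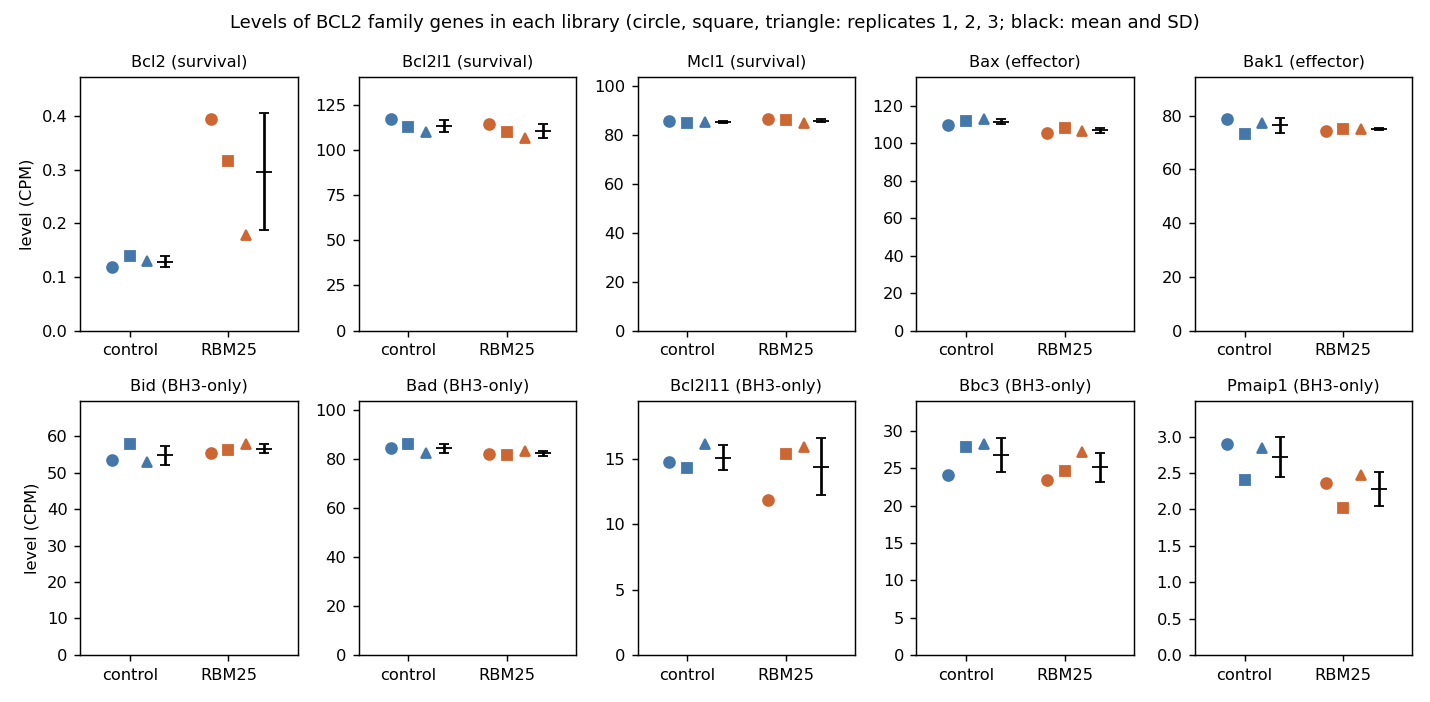
Level in CPM of each of the 10 genes in the 3 control (blue) and 3 RBM25 (orange) libraries, with each axis starting at 0; marker shapes stand for replicates 1, 2 and 3, and the black mark and bar for the mean and SD. The groups overlap in 8 genes; Bax is slightly lower in every RBM25 library, and Bcl2 is higher in every RBM25 library but never reaches 0.5 CPM.

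Among the survival genes, Bcl2l1 had the most reads of the 10 genes in the controls. Its level was 117, 113 and 110 CPM in control replicates 1, 2 and 3 and 115, 110 and 107 CPM in RBM25 replicates 1, 2 and 3. The highest value was a control and the lowest an RBM25 library, and the others were interleaved, so the groups overlapped. Mean levels were 113 ± 3.44 CPM for the controls and 110 ± 3.96 CPM for RBM25 (SD, n = 3 each). The log2 fold change was -0.035 ± 0.036 (SE; adjusted p = 0.77 by edgeR), and the 95% interval of the fold ran from 0.927 to 1.03. This bounds the total of its transcripts only against the variation among these libraries. The proportions of its 2 splice forms can shift under a constant total and were not measured. The exact two-sided permutation test of log2 CPM gave p = 0.4 for Bcl2l1, where 0.1 is the smallest p that 3 libraries against 3 allow.

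Mcl1, whose short-lived protein makes its supply of mRNA matter from hour to hour, was the steadiest of the 10 genes in the controls. It was at 85.8, 84.9 and 85.2 CPM in the control replicates and at 86.4, 85.9 and 85.1 CPM in the RBM25 replicates. The coefficient of variation was 0.58% in the controls and 0.783% in the RBM25 group, below the 2.03% and 1.94% that counting alone gives for its number of reads, so these 3 values a group lie closer together than counting error would place them on average. The log2 fold change was 0.0085 ± 0.035 (SE; adjusted p = 0.956 by edgeR), with a fold between 0.957 and 1.06.

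Bcl2, the founding survival gene, was nearly silent. It drew 3, 4 and 4 reads in control replicates 1, 2 and 3 and 13, 10 and 5 reads in RBM25 replicates 1, 2 and 3, which is 0.118, 0.139 and 0.129 CPM against 0.394, 0.316 and 0.179 CPM. All 3 RBM25 libraries were above all 3 controls, but RBM25 replicate 3 was above the highest control by a single read. Summed over libraries, 28 reads against 11 gave a ratio of 2.35 after scaling by library size (exact 95% interval 1.13 to 5.23, which covers counting error only). The exact two-sided permutation test gave p = 0.1 for Bcl2, the smallest possible, which follows from the lack of overlap alone. With the filter on low counts removed, edgeR gave a log2 fold change of 1.2 (unadjusted p = 0.0452, adjusted p = 0.552) and DESeq2 one of 1.21 (unadjusted p = 0.127, adjusted p = 0.999), so Bcl2 was not called by either. Of the 1549 genes that had at least 20 reads in all and were likewise too low to test, 5.42% were higher in every RBM25 library than in any control. In either direction, 10.5% of them did not overlap. Bcl2 thus added almost nothing to the summed level of the 3 survival genes Bcl2, Bcl2l1 and Mcl1.

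Of the effectors, Bax came nearest to a change. Its level was 110, 112 and 113 CPM in the control replicates and 106, 108 and 107 CPM in the RBM25 replicates, and every RBM25 library lay below every control. The mean went from 111 ± 1.40 to 107 ± 1.37 CPM (SD, n = 3 each), a difference of -4.13%. It did not pass the test (log2 fold change -0.061 ± 0.033 SE; edgeR unadjusted p = 0.0769, adjusted p = 0.506), and the fold lay between 0.914 and 1.00. Bax was the only tested member whose groups did not overlap, beside 7.94% of all tested genes that were lower in this way, 8.31% that were higher, and 16.2% in either direction. Of all tested genes 15.2% had a smaller p than Bax. The exact two-sided permutation test gave p = 0.1 for Bax, the smallest possible. Every gene without overlap gets this value, so it adds nothing to the lack of overlap.

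Bak1, which encodes the second effector, was at 78.6, 73.2 and 77.3 CPM in the control replicates and at 74.4, 75.1 and 75.1 CPM in the RBM25 replicates. The RBM25 values lay within the range of the controls. The log2 fold change was -0.029 ± 0.038 (SE; adjusted p = 0.829 by edgeR), with a fold between 0.929 and 1.03. Added together, Bax and Bak1 were at 188 ± 2.66 CPM (SD, n = 3) in the controls and 182 ± 1.69 CPM (SD, n = 3) in the RBM25 group, with no test made of this sum. The lowest control sum was 184.9 CPM and the highest RBM25 sum 183.4 CPM, so that the sums did not overlap, as the Bax values did not. The survival genes Bcl2, Bcl2l1 and Mcl1 summed to 199 ± 3.84 and 197 ± 4.72 CPM, and the 5 BH3-only genes to 184 ± 4.49 and 181 ± 5.98 CPM (SD, n = 3 each); in both cases the groups overlapped.

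**Figure D2:**
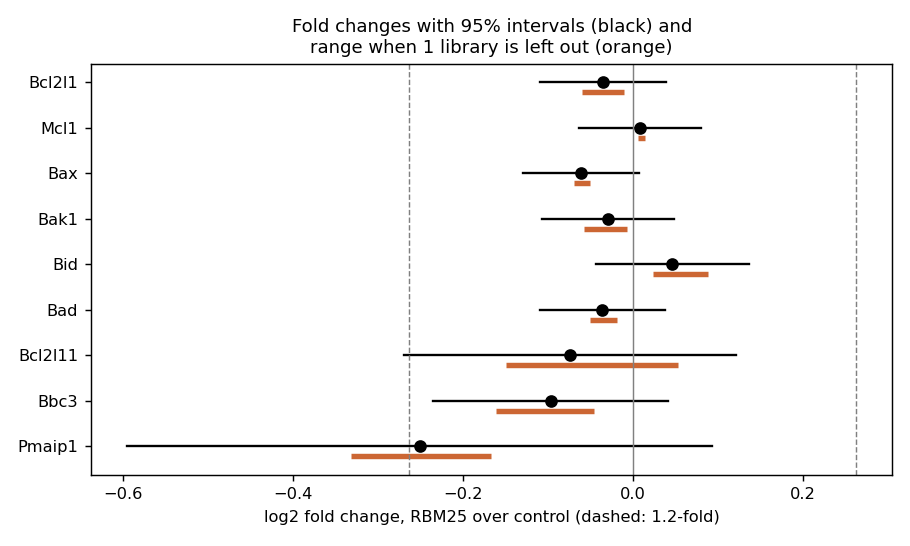
Log2 fold change of RBM25 over control for the 9 tested genes (points) with 95% intervals from edgeR (black lines) and the range of the fold change when each library is left out in turn (orange bars). Every interval includes 0, and 7 of the 9 stay inside the dashed lines at 1.2-fold.

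The BH3-only genes were measured with very different precision. Bad, whose protein is held inactive by phosphorylation when growth factors are present, was at 84.6, 86.4 and 82.6 CPM in the control replicates and at 82.1, 81.6 and 83.6 CPM in the RBM25 replicates. RBM25 replicate 3 exceeded control replicate 3, so the groups overlapped, and the log2 fold change was -0.036 ± 0.036 (SE; adjusted p = 0.765 by edgeR; fold between 0.927 and 1.03). Bid, which caspase-8 cuts to link death receptors to mitochondria, was at 53.6, 57.8 and 52.9 CPM in the controls and at 55.5, 56.3 and 58.0 CPM with RBM25. Besides Mcl1 it was the other tested member with a positive value, a log2 fold change of 0.047 ± 0.044 (SE; adjusted p = 0.745 by edgeR; fold between 0.970 and 1.10), and control replicate 2 stood above RBM25 replicates 1 and 2.

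Bcl2l11, the gene of BIM, was set apart by RBM25 replicate 1. It was at 14.8, 14.3 and 16.2 CPM in the control replicates and at 11.9, 15.4 and 15.9 CPM in the RBM25 replicates. RBM25 replicate 1 was the lowest of the 6 libraries, and RBM25 replicates 2 and 3 lay inside the control range. The log2 fold change was -0.074 ± 0.094 (SE; adjusted p = 0.821 by edgeR; fold between 0.829 and 1.09). Without RBM25 replicate 1 the direction turned, to a log2 fold change of 0.053 (adjusted p = 0.888 by edgeR).

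Bbc3 and Pmaip1 are both known p53 targets. Bbc3, the gene of PUMA, was at 24.1, 27.8 and 28.3 CPM in the control replicates and at 23.4, 24.7 and 27.2 CPM in the RBM25 replicates. Each group spanned about the same range, with replicate 1 low in both, and the log2 fold change was -0.097 ± 0.067 (SE; adjusted p = 0.628 by edgeR; fold between 0.849 and 1.03). Single libraries moved this value. It became -0.16 without control replicate 1 (unadjusted p = 0.0297, adjusted p = 0.374 by edgeR), -0.16 without RBM25 replicate 3 (unadjusted p = 0.023, adjusted p = 0.225), and between -0.083 and -0.046 in the other 4 fits that left out a library. None of these was a call.

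Pmaip1, the gene of NOXA, which acts chiefly against MCL1, had 64 to 88 reads per library. It was at 2.90, 2.40 and 2.84 CPM in the control replicates and at 2.36, 2.02 and 2.47 CPM in the RBM25 replicates. The groups overlapped because control replicate 2 was below RBM25 replicate 3. Its mean differed by -15.9%, the largest difference among the tested members, but its interval was also the widest, with a fold between 0.662 and 1.07 (log2 fold change -0.25 ± 0.17 SE; adjusted p = 0.612 by edgeR). The depth of Pmaip1 therefore leaves a wide range of changes, mostly falls, inside its interval.

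Ratios of reads within a library need no scaling between libraries, and those of a survival gene to an effector gene are often used to describe how far cells are from apoptosis. The Bcl2l1 to Bax ratio was 1.06, 1.01 and 0.977 in the control replicates and 1.08, 1.02 and 1.00 in the RBM25 replicates, so the groups overlapped. The Mcl1 to Bax ratio was 0.781, 0.760 and 0.756 in the controls and 0.818, 0.793 and 0.798 with RBM25, so that each RBM25 library was above each control. Of these 2 genes, Mcl1 overlapped between the groups and Bax did not. The ratios of Bcl2l1 to Bak1 (1.48 ± 0.0568 and 1.48 ± 0.0607) and of Mcl1 to Bak1 (1.12 ± 0.0363 and 1.15 ± 0.0145; SD, n = 3 each) overlapped between the groups. The Bcl2 to Bax ratio rests on 3 to 13 Bcl2 reads per library. It was 0.00107 to 0.00125 in the controls and 0.00168 to 0.00373 with RBM25, also with no overlap. No test was made of these ratios, and the share of all gene pairs whose ratios do not overlap was not computed. Of single tested genes 16.2% did not overlap in either direction.

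**Figure D3:**
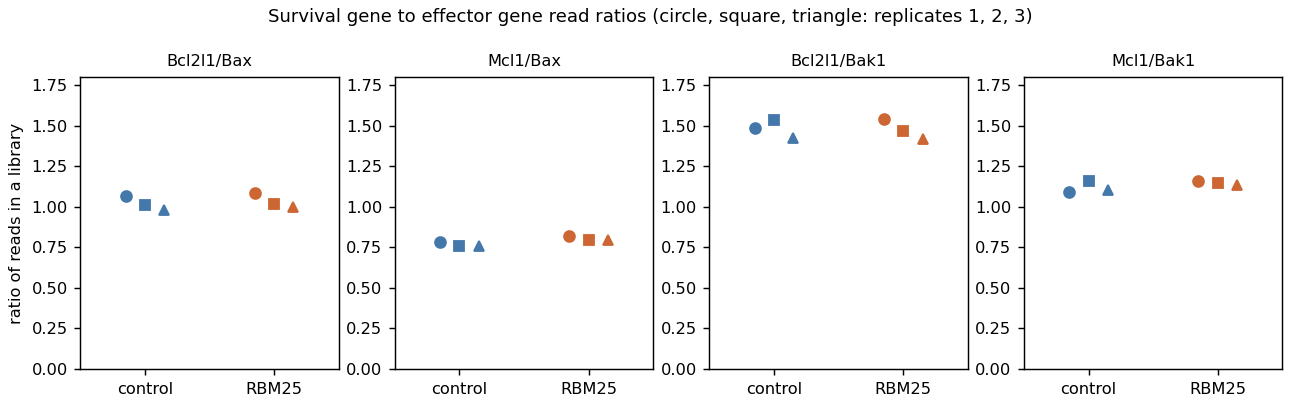
Ratio of the reads of a survival gene to those of an effector gene in each library, for Bcl2l1 and Mcl1 against Bax and Bak1, with control libraries in blue, RBM25 libraries in orange and marker shapes for replicates 1, 2 and 3. The groups overlap in 3 of the 4 ratios shown. Mcl1 to Bax is 0.756 to 0.781 in the controls and 0.793 to 0.818 with RBM25.

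Levels can be compared between genes only per length, for which the deposited FPKM values (reads per kilobase of gene and scaled to library size) were used. In the controls Bax had the highest value, 124 ± 1.67 FPKM (SD, n = 3), followed by Bad at 58.1 ± 1.2, Bak1 at 28.2 ± 1.07, Bid at 23.2 ± 1.09 and Mcl1 at 12.2 ± 0.0751 FPKM. These 5 did not overlap with their neighbours in the order. Bbc3, Pmaip1 and Bcl2l1 came next at 9.12 ± 0.782, 7.89 ± 0.803 and 7.27 ± 0.215 FPKM, and each overlapped with its neighbour among these 3, so their order is not settled. Bcl2l11 was lower at 2.28 ± 0.150 FPKM, and Bcl2 was lowest at 0.03 to 0.04 FPKM. By FPKM, pro-apoptotic genes thus held the first 4 places, and the same neighbours overlapped when all 6 libraries were used. By CPM the survival genes Bcl2l1 and Mcl1 held ranks 1 and 3, with Bax at rank 2.

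The place of Bcl2l1 in that order rests on the gene length the authors used. Its reads for every 1000000 counted, without the normalization factors, were divided by its FPKM. This gives an implied length of 15.6 kb, against 6.99 kb for Mcl1, 0.900 kb for Bax and 0.344 kb for Pmaip1. The median over 10121 tested genes with a mean of at least 1 FPKM was 3.34 kb, and 1.25% of them had a longer implied length than Bcl2l1. Bcl2l1 therefore ranked first of the 10 genes by CPM and eighth by FPKM. The definition of gene length is not stated, so the levels of these genes relative to each other are uncertain, as is the lead of the pro-apoptotic genes. The comparison of Bcl2l1 between the groups is not touched by length.

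**Figure D4:**
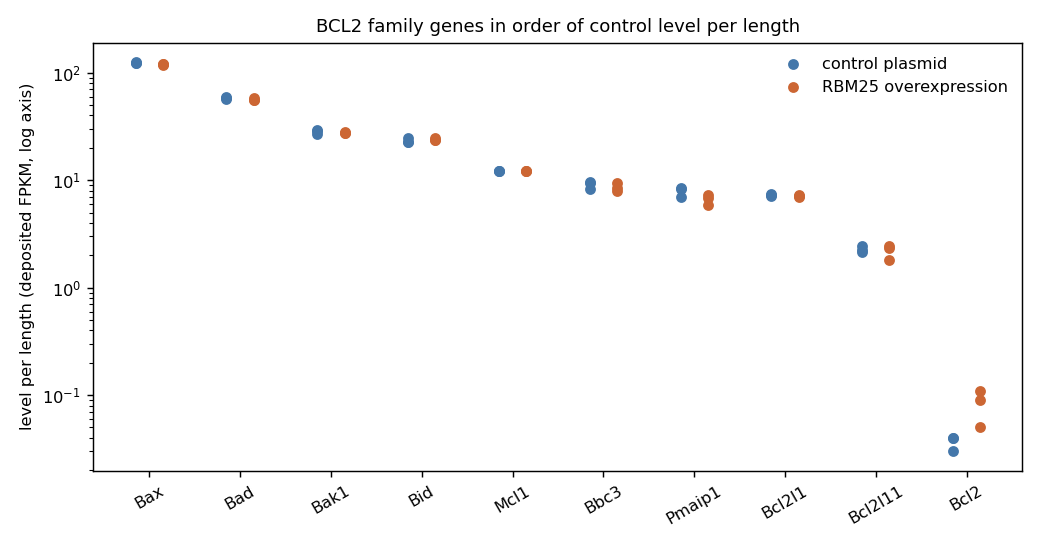
Deposited FPKM of the 10 genes in every library on a log axis, ordered by control mean, with control libraries in blue and RBM25 libraries in orange. Bax is highest at 117 to 125 FPKM and Bcl2 lowest at 0.03 to 0.11 FPKM; the order is nearly the same in both groups.

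The 5 genes whose log2 CPM followed that of Bcl2l1 most closely over the 6 libraries were Ccnb2 (Pearson r = 0.992), Rrp1 (0.990), Pgam1 (0.989), Soat1 (0.989) and Lrrc59 (0.988), out of 5245 genes whose mean log2 CPM reached 5. These values describe 6 libraries of 2 groups that also share depth and scaling, and 48 of those genes had an r of at least 0.95. Bbc3, Bcl2l11, Pmaip1 and Bcl2 were below that level and could not appear among the 5. Of the other members, which reached it, none was among them. Between the 9 tested members, r over the 6 libraries ran from -0.95 (Bbc3 and Mcl1) to 0.72 (Pmaip1 and Bak1), each again over 6 points. These are the extremes over all pairs of members, and Mcl1 varied within groups by less than counting error. No relation between genes is read from them.

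The remaining genes of the family and of the apoptosis pathway gave no calls either. Of 14 further BCL2 family genes, 11 were in the table and 8 could be tested, and all 8 did not pass (median log2 fold change 0.011). The 2 with the smallest p were Bnip3l, a mitophagy receptor (64.6, 63.9 and 63.9 CPM in the controls and 64.8, 67.7 and 71.1 CPM with RBM25; log2 fold change 0.081 ± 0.040 SE, adjusted p = 0.467 by edgeR), and the BH3-only gene Bmf (-0.10 ± 0.074, adjusted p = 0.635). Both moved with single libraries: Bnip3l was at 0.047 without RBM25 replicate 3, and Bmf at -0.033 without RBM25 replicate 1, -0.057 without control replicate 3 and -0.21 without RBM25 replicate 2, none of them a call. Bcl2l2, which encodes the survival protein BCL-W, was at 32.7 CPM in the controls and 33.4 CPM with RBM25, and Bok and Bcl2l13 were at control means of 40.9 and 54.5 CPM; these 3 did not pass either. Of 18 genes listed as caspases, their inhibitors and other genes of the cell death machinery, none passed (median 0.0062). Xiap, an inhibitor of caspases, was at 14.0, 16.3 and 15.7 CPM in the controls and at 17.5, 17.0 and 17.4 CPM with RBM25, with no overlap (0.17 ± 0.072, adjusted p = 0.345), and Parp1, a DNA repair enzyme that caspases cut, was lower in every RBM25 library than in any control, with a log2 fold change of -0.075 ± 0.034 (SE; adjusted p = 0.403 by edgeR). Over all tested genes 8.31% were higher and 7.94% lower with no overlap.

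Of the death receptor arm 9 of 11 listed genes were tested and none passed (median log2 fold change -0.018). Cflar, the gene of the caspase-8 inhibitor FLIP, had a log2 fold change of 0.16 ± 0.068 (SE; adjusted p = 0.345 by edgeR), and Tnfrsf1a, a TNF receptor, one of -0.055 ± 0.034 (adjusted p = 0.58), which moved to -0.085 with control replicate 1 left out and to -0.023 with control replicate 3 left out. Among 21 genes whose products control BCL2 family proteins, such as p53, FOXO factors, AKT kinases and the mitochondrial VDAC channels, none passed, 7 were positive and 14 negative (median -0.025). Usp9x, a deubiquitinase known to stabilise MCL1, was at 150, 152 and 156 CPM in the controls and at 162, 161 and 174 CPM with RBM25. Its groups did not overlap, and its log2 fold change was 0.12 ± 0.035 (SE; adjusted p = 0.136 by edgeR). Akt2, a kinase that acts on BAD, did not overlap either, in the lower direction, and had a log2 fold change of -0.078 ± 0.033 (SE; adjusted p = 0.364 by edgeR). Huwe1 was likewise lower with no overlap (-0.045 ± 0.032 SE, adjusted p = 0.628 by edgeR). Of the 21 genes 1 was thus higher and 2 lower with no overlap, beside 8.31% and 7.94% of all tested genes.

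The last list held proteins known to steer the Bcl-x splice choice or to work with RBM25, and 17 of these genes were tested. The labels name RBM25 as overexpressed. Whether the added Rbm25 reads came from the insert or from the cell's own gene was not tested. Rbm25 is therefore set apart here. Apart from it, Luc7l3, a U1-associated partner of RBM25, rose and 15 did not pass (median log2 fold change 0.031 over all 17), where 0.357% of all tested genes were called higher. The list was chosen with this result known, so nothing is read from its count. Luc7l3 was at 64.5, 58.9 and 61.8 CPM in the control replicates and at 72.5, 76.8 and 75.7 CPM in the RBM25 replicates (0.28 ± 0.041 SE; adjusted p = 6.55e-04 by edgeR), and it did not pass when control replicate 2 was left out (0.25, adjusted p = 0.061) and with limma on FPKM values (adjusted p = 0.203). The other 15 had log2 fold changes between -0.054 (Rbm10) and 0.10 (Celf2). Among them Srsf10 (0.10 ± 0.041) and Celf2 (0.10 ± 0.046) had unadjusted p of 0.0211 and 0.038 but did not pass (SE; adjusted p = 0.333 and 0.403 by edgeR). Khdrbs1, Hnrnpa1, Hnrnpf, Srsf1 and Sf3b1, known from human cells to act on this splice choice, were nearer to 0, between -0.030 and 0.045. Others of the list lay farther out, with Hnrnph1 at 0.071, Rbm11 at 0.091 and Rbm10 at -0.054.

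**Figure D5:**
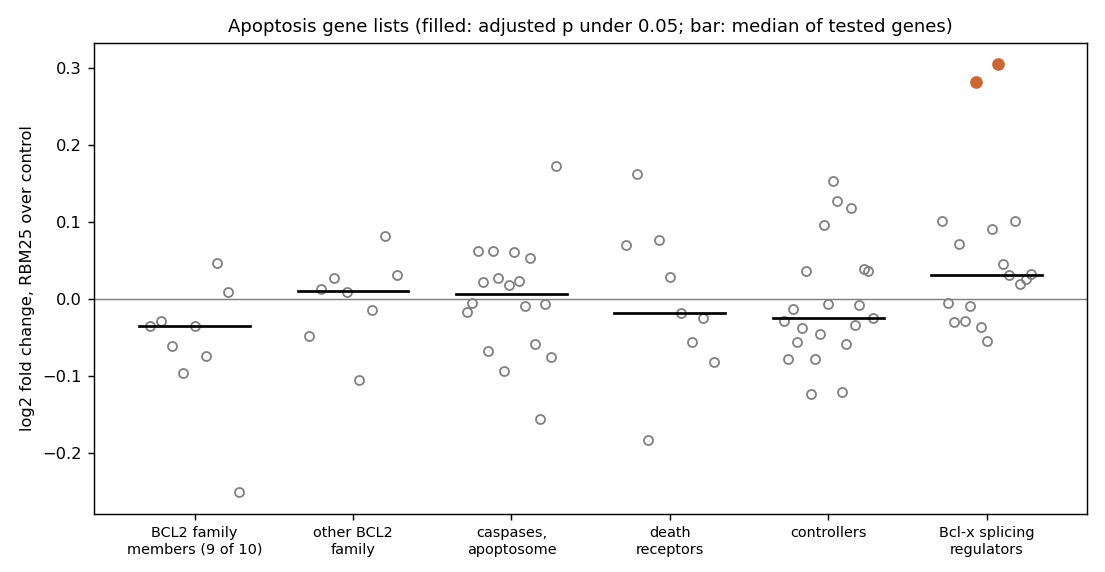
Log2 fold change of RBM25 over control for each tested gene of the 6 apoptosis and splicing lists (open grey: not called; filled orange: edgeR adjusted p under 0.05), with the median of each list as a bar. The 2 filled points are Rbm25 and Luc7l3; no BCL2 family gene is filled.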

How the data were processed

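Polyadenylated RNA was made into strand-marked libraries and sequenced as read pairs, per the labels' protocols. The submitters' processing notes name HISAT2, DESeq2 and the build mRatBN7.2, but no counting program, annotation or use of strand is stated. Counts were deposited as whole, unnormalized reads for each gene; the deposited FPKM values have 2 decimals. Genes kept by filterByExpr (minimum count of 10) were scaled by TMM and fitted in edgeR 4.0.16 (R 4.3.3) by a robust quasi-likelihood model with group as its only term, with Benjamini-Hochberg adjustment over all 12882 tested genes and a threshold of 0.05. SE is the log2 fold change over the square root of F. DESeq2 1.42.0 and limma 3.58.1 (log2(FPKM + 1), which understates changes of low genes) were alternatives. The edgeR, DESeq2 and limma fits were also run on simulated counts in which some genes were changed by at least 1.2-fold. The outcome is not given here and does not bear on smaller changes.

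The members and lists were chosen with earlier results of these data known. The text names all 10 members, Rbm25, in each other list every called gene or else the 2 with the smallest p, and the 5 genes most like Bcl2l1; other genes were added after their values were seen. Of 111 listed symbols, 103 were found and 8 were not used here. By gene spans of the assembly GRCr8, Bcl2l11 overlaps Acoxl (48 reads in all) and Bak1 overlaps LOC120098811 (17 reads), while Bcl2l1 overlaps Rps2-ps43 and Bcl2 overlaps LOC120096229 and LOC134481474, whose reads were not analysed here. No replicate pair agreed within sampling noise (chi-square per degree of freedom of 3.21 to 6.22), with RBM25 replicate 3 farthest from its group. Depth was 25543849 to 33130256 reads per library.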

Additional observations from a re-analysis of the deposited data

How the results depend on the processing

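No member of the BCL2 family was called under any of the 14 alternatives run; the smallest adjusted p of a member was 0.225 (Bbc3 without RBM25 replicate 3). Every tested member other than Bcl2l11 kept its direction in all 15 fits. Leaving out each library in turn gave log2 fold changes of -0.15 to 0.053 for Bcl2l11, of -0.060 to -0.0099 for Bcl2l1, of -0.057 to -0.0064 for Bak1, of 0.024 to 0.089 for Bid, of -0.050 to -0.018 for Bad, of -0.33 to -0.17 for Pmaip1 and of -0.069 to -0.051 for Bax. On FPKM values limma gave unadjusted p of 0.0431 for Bax and 0.0285 for Pmaip1 (adjusted p = 0.494 and 0.457). The count of 52 calls over all genes was less stable. It was 205 with no filter on low counts, 0 with limma on FPKM at either pseudocount (1022 genes at an unadjusted p under 0.05) and 6 on FPKM with no filter. It ran from 5 to 352 when a library was left out (5 when that was control replicate 2, 21 for control replicate 3 and 352 for RBM25 replicate 3), and the cause was not tested. Whether replicate numbers pair the samples is not stated in the labels. Deviations of same-numbered libraries correlated at 0.10, -0.084 and 0.010, and those of differently numbered libraries between -0.109 and 0.10. With 3 libraries a group these values cannot decide it. With the replicate block 436 genes were called, no family member among them, and Usp9x was (adjusted p = 0.00515). Depth limits Bcl2, which had 3 to 13 reads per library, and Pmaip1.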
